A study of Mus musculus with 10 samples.

Results

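The 10 genes described here encode the replicative helicase of mouse cells and the factors that load, activate, inhibit or follow it at the fork: Mcm2, Mcm3, Mcm4, Mcm5, Mcm6, Mcm7, Mcm10, Cdt1, Gmnn and Pcna. They were taken by gene symbol, not by any measured value, though with earlier results of these data known. Each is represented by 1 transcript among the 15269 transcripts listed for every library, of which 14534 are coding. Ribosome profiling sequences the mRNA fragments protected by ribosomes, called ribosome footprints, and was run on CGR8 cells, a feeder-free line of mouse embryonic stem cells of the 129 strain kept in LIF. The groups were untreated control cells, cells given DMDA-PatA (1 µM, 10 min), cells given harringtonine (2 µg/ml, 10 min) and cells given puromycin (0.2 mg/ml, 20 min), with 2 ribosome profiling libraries each, and 2 whole transcriptome libraries of untreated cells. All cultures received the same amount of DMSO, and cycloheximide was left out of the warm cultures and added to all groups from the ice-cold washes before lysis onwards. The methods call the replicates biological. P-values measure the spread between these libraries, including any offset of scale between replicates. All ribosome profiling groups share 1 estimate of it, so dropping a library of 1 group can move calls between the others.

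DMDA-PatA is an analogue of pateamine A and targets the RNA helicase eIF4A, which prepares mRNA for the scanning 40S subunit. Harringtonine acts on ribosomes at the start of elongation, and puromycin mimics a charged tRNA and releases the growing chain. The Mcm2 to Mcm7 proteins form a ring with 1 copy of each subunit, which is loaded on origins in G1 by ORC, Cdc6 and Cdt1 and becomes the core of the helicase that unwinds DNA in S phase. Geminin, the product of Gmnn, binds Cdt1 and prevents a second loading, Mcm10 helps to activate the loaded helicase, and PCNA is the sliding clamp that tethers the polymerases. Embryonic stem cells divide fast with short gap phases and carry large amounts of MCM proteins.

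The sequence around each start codon is shown because the inhibitors are compared by the footprints on either side of it, in the 5' UTR and in the ORF. The windows run 5' to 3' on the coding strand of GRCm38 (GENCODE M21 models), with 20 bases of 5' UTR, the start codon in capitals and 4 bases of coding sequence. Those of Mcm2, Mcm5 and Gmnn cross an intron, so their coordinates enclose it. The listed start codon has the same transcript position in M21 for 7 of 10 members. For the others the 5' UTR models differ, with 70 nt listed and 104 nt in M21 for Mcm3, 102 and 61 nt for Mcm5, and 91 and 99 nt for Mcm6, so their windows come from another model than their footprint counts.
Mcm2: gcggtggagctagcgcagacATGgcgg
Mcm3: ggcgatttcggagctgcgacATGgcgg
Mcm4: cgcgcagcaaccacagcaccATGtcgt
Mcm5: cgccgctgtgaggtacagtcATGtcgg
Mcm6: cgcgtactctcggcgccgccATGgacc
Mcm7: ccacaccgtccccggcagcgATGgcgc
Mcm10: tcagctgttcttttgacaacATGgatg
Cdt1: ggaactacctttttggcgccATGgcgc
Gmnn: cgccattggtgagctgaaaaATGaatc
Pcna: gtcgccacaactccgccaccATGtttg

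The windows lie at chr6:88897516-88898670 (minus strand, Mcm2), chr1:20820202-20820228 (minus, Mcm3), chr16:15637174-15637200 (minus, Mcm4), chr8:75109610-75109714 (plus, Mcm5) and chr1:128359559-128359585 (minus, Mcm6). The others lie at chr5:138171750-138171776 (minus, Mcm7), chr2:5010689-5010715 (minus, Mcm10), chr8:122568036-122568062 (plus, Cdt1), chr13:24760204-24761599 (minus, Gmnn) and chr2:132253030-132253056 (minus, Pcna). In all 10 windows the base 3 before the start codon is an A or a G, and in 6 of 10 the base directly after the start codon is a G, the 2 positions of the Kozak context that weigh most. The other 4 (Mcm4, Mcm5, Pcna and Gmnn) hold another base there. Upstream ATG triplets occur in 4 of the 10 annotated 5' UTRs, 8 of them in Mcm10 and 1 each in Mcm2, Pcna and Gmnn. Those of Mcm10, Pcna and Gmnn open frames that end before the main start codon.

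The listed ORFs measure 2712 nt (Mcm2), 2436 nt (Mcm3), 2586 nt (Mcm4), 2202 nt (Mcm5), 2463 nt (Mcm6), 2655 nt (Mcm10), 1671 nt (Cdt1), 783 nt (Pcna) and 618 nt (Gmnn). The listed Mcm7 transcript is a short model: its ORF of 1167 nt is 54.1% of the longest annotated Mcm7 coding sequence of 2157 nt and skips a stretch of 990 nt inside it. Reads that match more than 1 place in the genome had been discarded, so the ORFs were also searched for 30-nt windows that occur more than once. Such windows make up 55.9% of the Mcm7 ORF and 64.1% of the Pcna ORF, against 8.15% in Gmnn, 6.30% in Mcm4, 2.59% in Mcm6 and 0 in the remaining 5. Levels of Mcm7 and Pcna per length are therefore counted over an ORF that could receive reads only in part.

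Coding transcripts held between 9104220 and 10614247 ORF footprints in control, 618334 and 748665 under DMDA-PatA, 1672087 and 1944784 under harringtonine, and 872713 and 1547460 under puromycin. The transcriptome libraries held 16649611 and 38046741 ORF reads. All 10 listed stem cell markers, such as Pou5f1 and Zfp42, had transcriptome reads, with a summed level of 1740 and 1640 reads per 1000 nt of ORF and 1000000 coding reads. The 5 fibroblast or feeder markers summed to 2686 and 2855 on the same scale, with none at 0, nearly all of it from Col1a1 (1183 and 1270), Acta2 (1218 and 1299) and Col1a2 (272 and 273), while Thy1 stood at 9.52 and 10.4 and Pdgfra at 2.65 and 3.24. The 3 primitive endoderm markers summed to 4.71 and 3.94, the 2 mesoderm markers to 87.0 and 100.2, and the 2 neural markers to 8.52 and 6.66. The part of other cell types in the results was not tested, and fewer cells of a type and less RNA per cell cannot be told apart in bulk samples.

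The first question was how evenly the 6 subunits of the ring are represented per length in untreated cells, given that the complex holds 1 of each. Levels here are reads per 1000 nt of ORF and 1000000 coding reads, and carry no test. The control footprint level was highest for Mcm5 (548 ± 2.17, SD, n = 2), followed by Mcm3 (422 ± 30.7), Mcm2 (335 ± 5.54), Mcm6 (243 ± 4.98), Mcm4 (205 ± 4.68) and Mcm7 (82.4 ± 1.10). No neighbours in this order overlapped between the libraries, and the highest level was 6.65 ± 0.11 times the lowest. An equal split would give each subunit 16.7% of the sum, and the measured shares ran from 29.9% ± 0.15 for Mcm5 to 4.49% ± 0.10 for Mcm7.

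The whole transcriptome reads gave the same order, with Mcm5 at 295 ± 13.9, Mcm3 at 209 ± 0.11, Mcm2 at 176 ± 18.8, Mcm6 at 145 ± 5.30, Mcm4 at 59.4 ± 2.97 and Mcm7 at 24.8 ± 0.74. The spread was wider in the transcriptome than in the footprints, with a ratio of highest to lowest of 11.9 ± 0.20 against 6.65 ± 0.11. With positions that match several places left out of the length, Mcm7 was still the lowest subunit, at 192 ± 2.55 in the control footprints against 221 ± 5.06 for Mcm4 and at 57.8 ± 1.72 against 64.1 ± 3.21 in the transcriptome, and no neighbours overlapped. With the length cut to positions found exactly once in the genome, a step added after seeing the data, Mcm7 stood at 266 ± 3.53 in the control footprints. Mcm4 stood beside it at 260 ± 5.93, and these neighbours overlapped. In both steps only the length changed, and all reads of the ORF stayed in the count, also any across splice junctions. The ratio of highest to lowest was then 2.62 ± 0.07 in the footprints and 4.87 ± 0.01 in the transcriptome. Mcm5 stayed highest in both, at 28.1% ± 0.10 and 31.3% ± 0.43 of the sum.

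**Figure D1:**
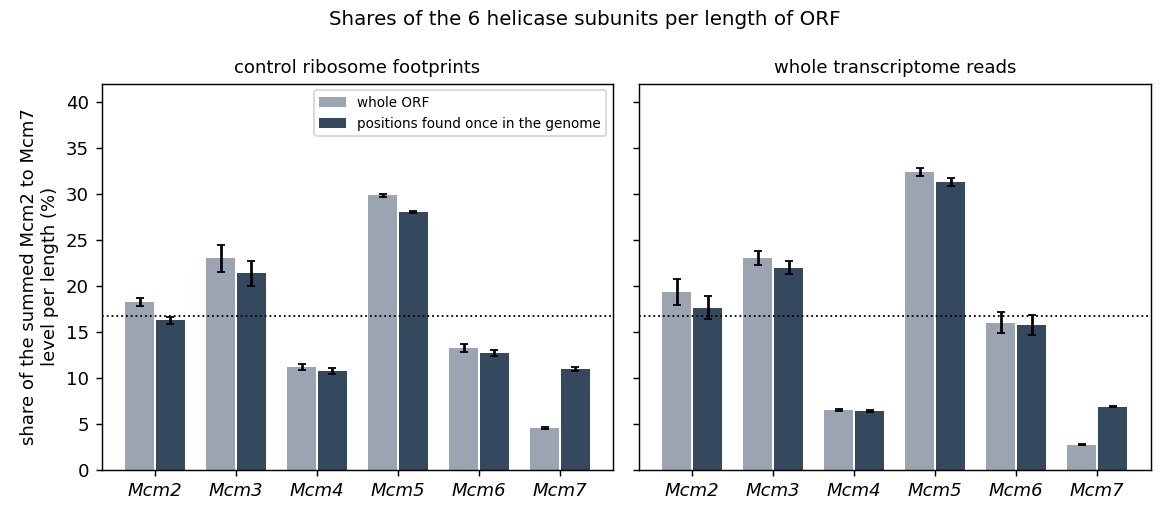
Share of each subunit in the summed level per length of Mcm2 to Mcm7 (vertical axis, %), for control ribosome footprints (left) and whole transcriptome reads (right). Bars are means of 2 libraries with the SD, and the dotted line marks the equal share of 16.7%. Grey bars divide the reads of the ORF by its whole length, dark bars divide the same reads by the number of positions found once in the genome. Mcm5 is highest in each panel, and the bar of Mcm7 grows from 4.49% to 10.9% in the footprints.

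Among the other members, Cdt1 had 230 ± 15.3 in the control footprints on this scale, Gmnn 161 ± 12.3, Mcm10 102 ± 3.0 and Pcna 71.8 ± 6.88. The Gmnn level was below that of Cdt1, its binding partner, in both control libraries. With the length cut to positions found exactly once, Pcna stood at 251 ± 24.1, Cdt1 at 275 ± 18.3 and Gmnn at 224 ± 17.2. The libraries of Pcna then overlapped with those of both Cdt1 and Gmnn.

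Translation efficiency, the ratio of control footprints to whole transcriptome reads in the ORF with both scaled to their coding totals, was above 1 for all 10 members. Of 13717 coding transcripts tested 29.9% were called higher and 41.2% lower by the same rule, an adjusted p under 0.05 in edgeR's quasi-likelihood test, and the median log2 ratio of all was -0.19. The ratio was largest for Mcm4, with a log2 value of 1.79 (SE 0.09, adjusted p = 7.4e-10, edgeR), and for Mcm7, with 1.73 (SE 0.11, adjusted p = 6.2e-09). Pcna followed with 1.61 (SE 0.12) and Gmnn with 1.39 (SE 0.11). The other 6 lay between 0.66 (Mcm10, adjusted p = 1.9e-05, edgeR) and 1.01 (Mcm3). The 2 subunits with the lowest transcriptome level per length, Mcm4 and Mcm7, had the highest ratios of the 6. The transcriptome reads are the denominator of the ratio, so these rankings are not independent. The part of the windows that occur more than once in the ratios of Mcm7 and Pcna was not tested.

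**Figure D2:**
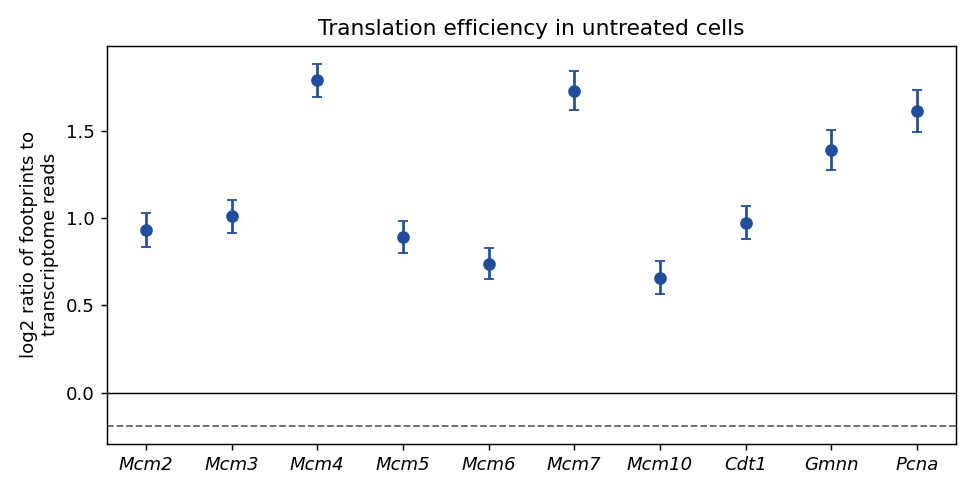
Log2 ratio of control ribosome footprints to whole transcriptome reads in the ORF (vertical axis) for the 10 genes. Points are edgeR estimates over 2 libraries of each kind with the standard error, and the dashed line is the median of the 13717 coding transcripts at -0.19. All 10 points lie above 0, with Mcm4 and Mcm7 at the top.

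Other replication genes on a list of 51, of which 49 were listed in the files, gave 32 with a ratio above the test's threshold and 7 below it, with a median log2 ratio of 0.56. Polymerase and primase subunits were called higher in 10 of 12 cases, and the 4 single-strand binding and lagging strand genes in 4 of 4. The highest was Rpa3, the smallest subunit of the single-strand binding complex RPA, at 3.34 (SE 0.12, adjusted p = 3.3e-11, edgeR), and the lowest was Topbp1, which helps to load Cdc45, at -1.56 (SE 0.09, adjusted p = 2.3e-09). Among the helicase activation genes 6 of 12 were higher and 3 lower. The lower ones were Topbp1, Dbf4 (-0.99) and Ticrr (-0.40).

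The second question was how far each inhibitor clears ribosomes from the ORFs of these genes. All 3 drugs lowered the ORF footprints of all 10 members, by 10.5 to 60.2-fold with DMDA-PatA, 4.38 to 30.9-fold with harringtonine and 4.25 to 18.2-fold with puromycin. The same call was made for 99.3% of the 12499 transcripts tested for DMDA-PatA, 92.9% of them for harringtonine and 90.1% of them for puromycin (0.056%, 0.512% and 0.352% were called higher), so the direction is shared with nearly all transcripts. Values are footprints normalised by the authors to spiked-in RNA, and the 3 comparisons use the same 2 control libraries. Which size factors belong to DMDA-PatA and which to harringtonine is in doubt, since the authors applied them both ways in their own means. Exchanging them moved the median log2 change of all transcripts from -4.32 to -4.11 with DMDA-PatA and from -2.97 to -3.23 with harringtonine, and all 10 members were still lower with each drug. In every member, harringtonine replicate 1 lay above replicate 2 and DMDA-PatA replicate 1 below replicate 2. Whether libraries of these drugs overlap, as described below for each gene, therefore depends on the factors in doubt.

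Mcm2 had 9634 and 8841 normalised ORF footprints in control, 218 and 368 under DMDA-PatA, 780 and 486 under harringtonine, and 627 and 739 under puromycin. Mcm3 had 11596 and 9377 in control, 287 and 401 under DMDA-PatA, 945 and 449 under harringtonine, and 875 and 729 under puromycin. For both subunits the DMDA-PatA libraries were the lowest and did not overlap with any other group, while harringtonine and puromycin overlapped. The log2 fold changes of Mcm2 were -4.98 (SE 0.53), -3.87 (SE 0.50) and -3.76 (SE 0.50) for DMDA-PatA, harringtonine and puromycin, and those of Mcm3 were -4.93 (SE 0.53), -3.91 (SE 0.51) and -3.71 (SE 0.50).

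Mcm4 had 5602 and 5187 normalised ORF footprints in control, 96.0 and 158 under DMDA-PatA, 271 and 232 under harringtonine, and 693 and 699 under puromycin. Mcm5 had 12984 and 11575 in control, 405 and 647 under DMDA-PatA, 649 and 397 under harringtonine, and 1284 and 1398 under puromycin. In these subunits puromycin left the most footprints of the 3 drugs, in both libraries. The 4 groups of Mcm4 were fully separated, whereas the DMDA-PatA and harringtonine libraries of Mcm5 overlapped. Mcm4 changed by -5.41 (SE 0.54), -4.42 (SE 0.51) and -2.95 (SE 0.48) on the log2 scale with DMDA-PatA, harringtonine and puromycin, and Mcm5 by -4.55 (SE 0.52), -4.55 (SE 0.53) and -3.19 (SE 0.49).

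Mcm6 had 6326 and 5838 normalised ORF footprints in control, 73.2 and 129 under DMDA-PatA, 509 and 291 under harringtonine, and 316 and 349 under puromycin. Mcm7 had 1022 and 934 in control, 20.8 and 21.1 under DMDA-PatA, 308 and 139 under harringtonine, and 277 and 185 under puromycin. Mcm6 had the greatest DMDA-PatA decrease among the 10 members, with a log2 fold change of -5.91 (SE 0.55, adjusted p = 2.7e-25, edgeR). Mcm7 came next with -5.54 (SE 0.53), yet had the smallest decreases with harringtonine, -2.13 (SE 0.45, adjusted p = 2.7e-06, edgeR), and with puromycin, -2.09 (SE 0.45, adjusted p = 6.5e-06). The changes of Mcm6 with these drugs were -3.93 (SE 0.50) and -4.19 (SE 0.51). The Mcm7 values rest on the short model of its ORF, with 33 and 26 reads under DMDA-PatA.

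Mcm10 had 2853 and 2666 normalised ORF footprints in control, 102 and 126 under DMDA-PatA, 207 and 115 under harringtonine, and 168 and 205 under puromycin. Its log2 fold changes were -4.60 (SE 0.51), -4.10 (SE 0.50) and -3.88 (SE 0.50), in that order of drugs. Among the drugs the puromycin and DMDA-PatA libraries of this activation factor were separated, and on the spike-in scale with all libraries no test between drugs called it. Without harringtonine replicate 2 it was lower with DMDA-PatA than with harringtonine (-0.87, adjusted p = 0.045, edgeR), and without either harringtonine library lower than with puromycin (-0.72, adjusted p = 0.048 in both cases, edgeR). Cdt1 had 3936 and 3876 in control, 273 and 469 under DMDA-PatA, 719 and 374 under harringtonine, and 465 and 594 under puromycin. Its DMDA-PatA change of -3.40 (SE 0.49, adjusted p = 4.2e-12, edgeR) was the smallest of the 10, and the changes with harringtonine and puromycin were -2.84 (SE 0.47) and -2.88 (SE 0.48). The harringtonine libraries of Cdt1 lay on either side of both puromycin libraries and overlapped with those of DMDA-PatA.

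Gmnn had 1007 and 1006 normalised ORF footprints in control, 28.4 and 43.8 under DMDA-PatA, 232 and 162 under harringtonine, and 196 and 187 under puromycin. The DMDA-PatA libraries stood apart from the others, with log2 fold changes of -4.80 (SE 0.51), -2.35 (SE 0.45) and -2.39 (SE 0.46) for DMDA-PatA, harringtonine and puromycin. Pcna had 562 and 577 in control, 10.7 and 17.9 under DMDA-PatA, 23.3 and 14.0 under harringtonine, and 78.6 and 92.0 under puromycin. For the clamp it was puromycin that stood apart, with a change of -2.73 (SE 0.46) against -5.32 (SE 0.52) with DMDA-PatA and -4.95 (SE 0.51) with harringtonine. The inhibitor levels of Pcna rest on few reads, between 17 and 74 a library.

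**Figure D3:**
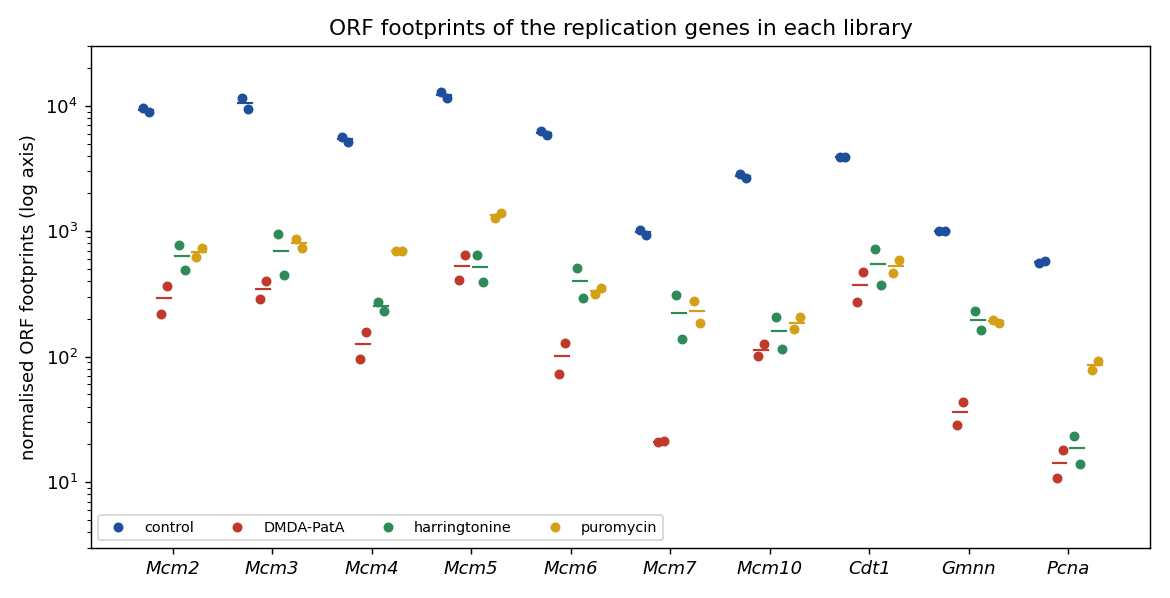
Normalised ORF footprints (vertical log axis) of the 10 genes in each of the 8 ribosome profiling libraries. Points are single libraries, short lines are group means, and colours mark control, DMDA-PatA, harringtonine and puromycin. Every inhibitor library lies below both control libraries of its gene, and the red points of Mcm6, Mcm7 and Gmnn lie well below the green and yellow ones.

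Set against the transcripts as a whole, the helicase subunits lost more footprints than the middle transcript, except Mcm7 with harringtonine and puromycin. The median log2 change of Mcm2 to Mcm7 was -5.19 with DMDA-PatA, where the median of all transcripts tested was -4.32, -3.92 with harringtonine, where it was -2.97, and -3.45 with puromycin, where it was -2.48. The medians of the 1934 coding transcripts with ORFs of 2000 to 3000 nt, the range of 5 of the 6 subunits, lay between these values at -4.61, -3.48 and -3.04. Scaling the libraries by TMM, which centres the data on the bulk of the transcripts and moved the medians of all to -0.12, -0.12 and -0.04, gave the changes relative to the other transcripts.

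On that relative scale, 7 of 10 members were lower and 1 higher with DMDA-PatA (23.6% and 18.8% of all tested), 7 lower and 2 higher with harringtonine (30% and 26.6%), and 6 lower and none higher with puromycin (24.9% and 24.3%). Mcm2, Mcm3, Mcm4 and Mcm6 were lower with each drug. Cdt1 was the member above the bulk with DMDA-PatA, at a log2 value of 0.80 (SE 0.18, adjusted p = 0.0016, edgeR with TMM). Mcm7 (0.67, adjusted p = 0.0089, edgeR with TMM) and Gmnn (0.52, adjusted p = 0.016) were those above it with harringtonine. Gmnn with harringtonine did not pass when libraries were scaled to equal coding totals (0.37, adjusted p = 0.082, edgeR).

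**Figure D4:**
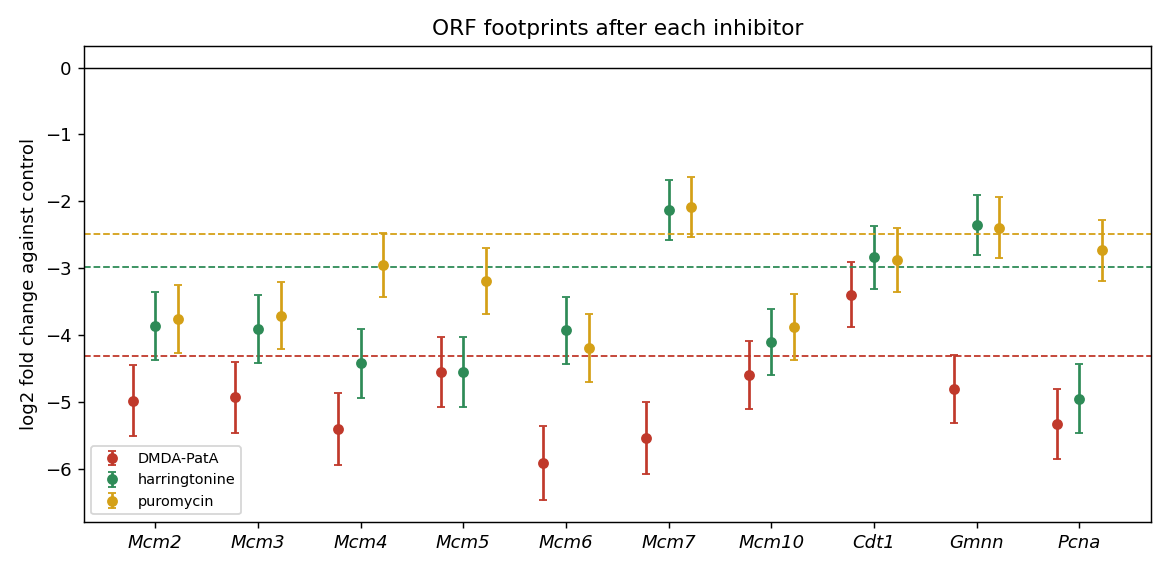
Log2 fold change of ORF footprints against control (vertical axis) for the 10 genes and 3 inhibitors. Points are edgeR estimates over 2 libraries a group with the standard error, and dashed lines are the medians of the 12499 transcripts tested (-4.32 with DMDA-PatA, -2.97 with harringtonine, -2.48 with puromycin). Most helicase subunits lie below the line of each drug, and Mcm7, Cdt1 and Gmnn lie above at least 1 of them.

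All 49 listed replication genes were lower with DMDA-PatA, 42 of them with harringtonine and 43 of them with puromycin, with medians of -4.46, -2.97 and -2.87. Gins4, a subunit of the GINS complex that rides with the helicase, had the greatest DMDA-PatA decrease at -6.73 (SE 0.58, adjusted p = 4.0e-29, edgeR), and Pold4, a small subunit of polymerase delta, the smallest at -2.03 (SE 0.54). Pold1, the catalytic subunit of polymerase delta, had the greatest decrease with harringtonine (-5.76, SE 0.54) and with puromycin (-4.72, SE 0.52). The genes that did not pass with harringtonine were Cdc45, Gins3, Pole, Pole3, Pole4, Rpa3 and Chaf1b, and those that did not pass with puromycin were Pole, Pole4, Pold4, Rfc5, Rpa3 and Chaf1b. With TMM, 21 were lower and 12 higher for DMDA-PatA, 19 lower and 18 higher for harringtonine, and 22 lower and 15 higher for puromycin, so both directions occurred in these genes relative to the bulk. On the spike-in scale the values furthest up were 0.73 (SE 0.42) for Pole4 with harringtonine and 0.06 (SE 0.43) for Chaf1b, a subunit of the histone chaperone CAF-1, with puromycin.

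The transcripts most like the subunit medians over the 3 drug changes, among 2093 coding transcripts with at least 1000 control reads in each control library, were Kif20a, which encodes a kinesin of cell division, at a distance of 0.07 log2 units, Dlc1 at 0.07, and a transcript with no matched symbol at 0.13. Kif20a changed by -5.14, -3.93 and -3.49 with DMDA-PatA, harringtonine and puromycin.

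The third question was where the inhibitors differ from each other. DMDA-PatA left fewer ORF footprints than harringtonine on 5 of 10 members (52.8% of all transcripts tested) and none higher, with a median of -1.36 over all. The largest differences were those of Mcm7, with a log2 difference of -3.40 (SE 0.50, adjusted p = 3.6e-10, edgeR), Gmnn, with -2.45 (SE 0.47, adjusted p = 2.2e-06), and Mcm6, with -1.99 (SE 0.47, adjusted p = 0.00014). Mcm2 (-1.11, adjusted p = 0.032, edgeR) and Mcm3 (-1.02, adjusted p = 0.0499) also passed. Mcm5 did not pass, with 0.01 (SE 0.46). With TMM, Mcm6, Mcm7 and Gmnn remained lower, while Mcm5, Mcm10, Pcna and Cdt1 were called higher, so 3 members were lower and 4 higher relative to the bulk (18% and 15.8% of all tested). With the size factors of these drugs exchanged the median over all was -0.89, Mcm3 no longer passed (-0.46, adjusted p = 0.11, edgeR), Mcm4 passed (-0.59, adjusted p = 0.048), and Mcm10 (0.044) and Pcna (0.082) changed sign. The calls of Mcm2 and Mcm3 were lost without any 1 of several libraries, and 3 members were then called, without either control library, either puromycin library, DMDA-PatA replicate 1 or harringtonine replicate 1. Without harringtonine replicate 2 there were 8.

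DMDA-PatA left fewer ORF footprints than puromycin on 8 of 10 members (67.4% of all tested), with a median of -1.78 over all transcripts. Mcm7 again led with -3.45 (SE 0.50, adjusted p = 1.3e-10, edgeR), followed by Pcna with -2.59 (SE 0.50), Mcm4 with -2.45 (SE 0.48) and Gmnn with -2.41 (SE 0.48). Under DMDA-PatA, Mcm7 had only 33 and 26 reads on its short model, and Pcna 17 and 22. Mcm10 (-0.72, SE 0.46) and Cdt1 (-0.52, SE 0.45) did not pass. With TMM 4 were lower (Mcm7, Pcna, Mcm4 and Gmnn) and 4 higher (Mcm2, Mcm3, Mcm10 and Cdt1) than the bulk, against 19.1% and 17.8% of all tested. The calls of Mcm2, Mcm3 and Mcm5 were lost without DMDA-PatA replicate 1 or without puromycin replicate 2, which left 5. Those of Mcm2 (adjusted p = 0.053, edgeR) and Mcm3 (adjusted p = 0.12) were also lost without puromycin replicate 1.

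Harringtonine left fewer ORF footprints than puromycin on 3 of 10 members (9.94% of all tested) and more on none (1.2%), namely Pcna with a log2 difference of -2.22 (SE 0.50, adjusted p = 0.00058, edgeR), Mcm4 with -1.47 (SE 0.46, adjusted p = 0.02) and Mcm5 with -1.36 (SE 0.46, adjusted p = 0.035). With TMM the same 3 were lower, and Mcm6 was higher (0.65, SE 0.18). Only Pcna was called without either control library or without puromycin replicate 1, and none without puromycin replicate 2, where Pcna had an adjusted p of 0.057 in edgeR's test. Of the 49 other replication genes 3 were lower here, Rpa2 (-2.13), Wdhd1 (-1.48) and Gins2 (-1.40), and none higher. Their number ran from 0 without puromycin replicate 2 to 16 without harringtonine replicate 1, and was 1 without either control library, without harringtonine replicate 2 or without puromycin replicate 1. At the same scale 36 were lower and 1, Pold1, was higher with DMDA-PatA than with harringtonine, and 40 were lower with DMDA-PatA than with puromycin. The Pold1 call was lost without harringtonine replicate 2 or DMDA-PatA replicate 2.

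The fourth question was whether ribosome footprints on the 5' UTRs followed those on the ORFs. Several moved the other way: with DMDA-PatA, 4 of 9 members tested had more 5' UTR footprints than control (14.6% of the 6712 transcripts tested) and 1 had fewer (28.9%), and with harringtonine 7 of 9 had more (34.8%) and none fewer (5.18%). The remaining member, Cdt1, has a listed 5' UTR of 41 nt with 0 reads in the control, harringtonine and puromycin libraries and 2 reads in each DMDA-PatA library, and was not tested. A count of 0 allows up to 3 reads, counting error only. Of the 4 members higher with DMDA-PatA, Mcm2 was tested only because of its DMDA-PatA libraries and Mcm5 sat at the threshold. The count of 4 is therefore in part fixed by the filter.

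The 5' UTR of Mcm2 (130 nt) had 4.72 and 4.53 normalised footprints in control, 42.9 and 87.7 under DMDA-PatA, 22.3 and 4.90 under harringtonine, and 14.5 and 6.22 under puromycin. The DMDA-PatA libraries were above all others, a log2 change of 3.78 (SE 0.65, adjusted p = 1.7e-07, edgeR), while the harringtonine libraries differed from each other and the change of 1.47 (SE 0.71, adjusted p = 0.083) did not pass. The control values come from 4 and 5 reads. Outside DMDA-PatA (68 and 108 reads) only harringtonine replicate 1, with 22, reached the 10 reads required in 2 libraries. This 5' UTR was thus tested only because of the DMDA-PatA libraries, where it was high, and the p-value does not account for that. Mcm3 (70 nt) had 11.8 and 7.25 in control, 31.6 and 60.1 under DMDA-PatA, 93.3 and 38.5 under harringtonine, and 24.8 and 18.7 under puromycin. Both DMDA-PatA (2.27, SE 0.58) and harringtonine (2.79, SE 0.58) raised it.

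Mcm7 (62 nt) had 15.3 and 20.8 normalised 5' UTR footprints in control, 59.3 and 82.0 under DMDA-PatA, 137 and 91.7 under harringtonine, and 18.6 and 27.4 under puromycin. Its changes were 1.95 (SE 0.53, adjusted p = 0.0011, edgeR) with DMDA-PatA and 2.64 (SE 0.53, adjusted p = 1.1e-05) with harringtonine, and only the puromycin libraries overlapped with control. Mcm5 (102 nt) had 11.8 and 9.06 in control, 27.1 and 26.8 under DMDA-PatA, 34.5 and 43.4 under harringtonine, and 12.4 and 2.49 under puromycin. Its DMDA-PatA change of 1.37 (SE 0.60, adjusted p = 0.049, edgeR) sat at the threshold and was lost without any 1 library of control, DMDA-PatA or puromycin.

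Mcm4 (220 nt) had 79.0 and 38.1 normalised 5' UTR footprints in control and 86.5 and 132 with DMDA-PatA, and Mcm6 (91 nt) had 16.5 and 13.6 in control and 24 and 39.8 with DMDA-PatA. Neither passed with DMDA-PatA (0.91, SE 0.47, and 1.08, SE 0.56), although the groups did not overlap. With harringtonine Mcm4 had 269 and 184 and Mcm6 64.9 and 58.8, changes of 1.96 (SE 0.48) and 2.04 (SE 0.55) that passed. Mcm10, with the longest 5' UTR of the 10 (530 nt), had 66.0 and 73.4 in control, 51.8 and 58.4 under DMDA-PatA, 342 and 192 under harringtonine, and 84.8 and 88.3 under puromycin. It was higher with harringtonine (1.93, SE 0.47), while the DMDA-PatA value of -0.34 (SE 0.47) did not pass and turned to 0.22 with TMM.

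Pcna (278 nt) had 134 and 119 normalised 5' UTR footprints in control, 124 and 232 under DMDA-PatA, 448 and 362 under harringtonine, and 74.4 and 52.2 under puromycin, and passed only with harringtonine (1.68, SE 0.46). Gmnn (282 nt) was the exception among the members: it had 84.9 and 96.1 in control, 24 and 43.0 under DMDA-PatA, 95.4 and 93.8 under harringtonine, and 45.5 and 27.4 under puromycin. Its DMDA-PatA change was -1.44 (SE 0.49, adjusted p = 0.01, edgeR), and its harringtonine value was 0.06 (SE 0.47). With libraries scaled to equal ORF totals the DMDA-PatA change of Gmnn became 2.88, where the median of all transcripts was 3.85. With TMM it stayed negative at -0.94, where that median was 0.05. Gmnn was the lowest of the 9 members tested with either scaling. The transcriptome libraries held 15 and 13 reads on this 5' UTR, fewer than the 72 and 106 footprints of the control libraries.

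Without control replicate 1 or without control replicate 2, 2 members instead of 4 were higher with DMDA-PatA in the 5' UTR, and without control replicate 2, 3 instead of 7 were higher with harringtonine. The Gmnn decrease did not pass without either control library (adjusted p = 0.051 and 0.092, edgeR) or without DMDA-PatA replicate 1 (adjusted p = 0.12). With TMM the counts were 7 higher and 1 lower with DMDA-PatA (25.5% and 23.5% of all tested), and 6 higher and none lower with harringtonine (19.3% and 19.9%). With the DMDA-PatA and harringtonine size factors exchanged, 6 members were higher with DMDA-PatA, all of Mcm2 to Mcm7, and DESeq2 called 3. The shares of all tested called in these settings are not given, so the counts are not a result about the members. Exchanging the factors also moved the median of all transcripts, from -0.48 to -0.27. With puromycin no member was called in edgeR's test (0.566% of all tested were higher and 0.417% lower). At an unadjusted p under 0.05, 2 members were lower and none higher, and DESeq2 called 0 members. With TMM Pcna (-1.09) and Gmnn (-1.43) were lower, 2 of 9 (2.37% of all tested), and none was higher (1.8%).

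The ratio of 5' UTR to ORF footprints, tested within the libraries and so not bound to the spike-in scale, was raised for all 9 members with each drug. That was so for 91.9% of 6647 coding transcripts for DMDA-PatA, 94.1% of them for harringtonine and 76.8% of them for puromycin, and 0.15%, 0.165% and 0.0602% were lower. With DMDA-PatA, Mcm2 had the largest change, 8.65 on the log2 scale (SE 0.51, adjusted p = 3.5e-12, edgeR), followed by Mcm7 with 7.44 (SE 0.49), Mcm3 with 7.12 (SE 0.43) and Mcm6 with 6.98 (SE 0.44), where the median of all transcripts was 4.34. The 5' UTR of Mcm2 entered this test too only through its DMDA-PatA libraries. The median of the 6 subunits, Mcm2 included, was 7.05 with DMDA-PatA, 6.21 with harringtonine (3.97 over all) and 3.89 with puromycin (2.50 over all). Gmnn had the smallest change of the 9 with each drug, 3.34 (SE 0.43), 2.44 (SE 0.39) and 1.02 (SE 0.44, adjusted p = 0.038, edgeR). The puromycin value of Gmnn did not pass without either control library or without puromycin replicate 1, and that of Mcm5 did not pass without puromycin replicate 1 (adjusted p = 0.44, edgeR).

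**Figure D5:**
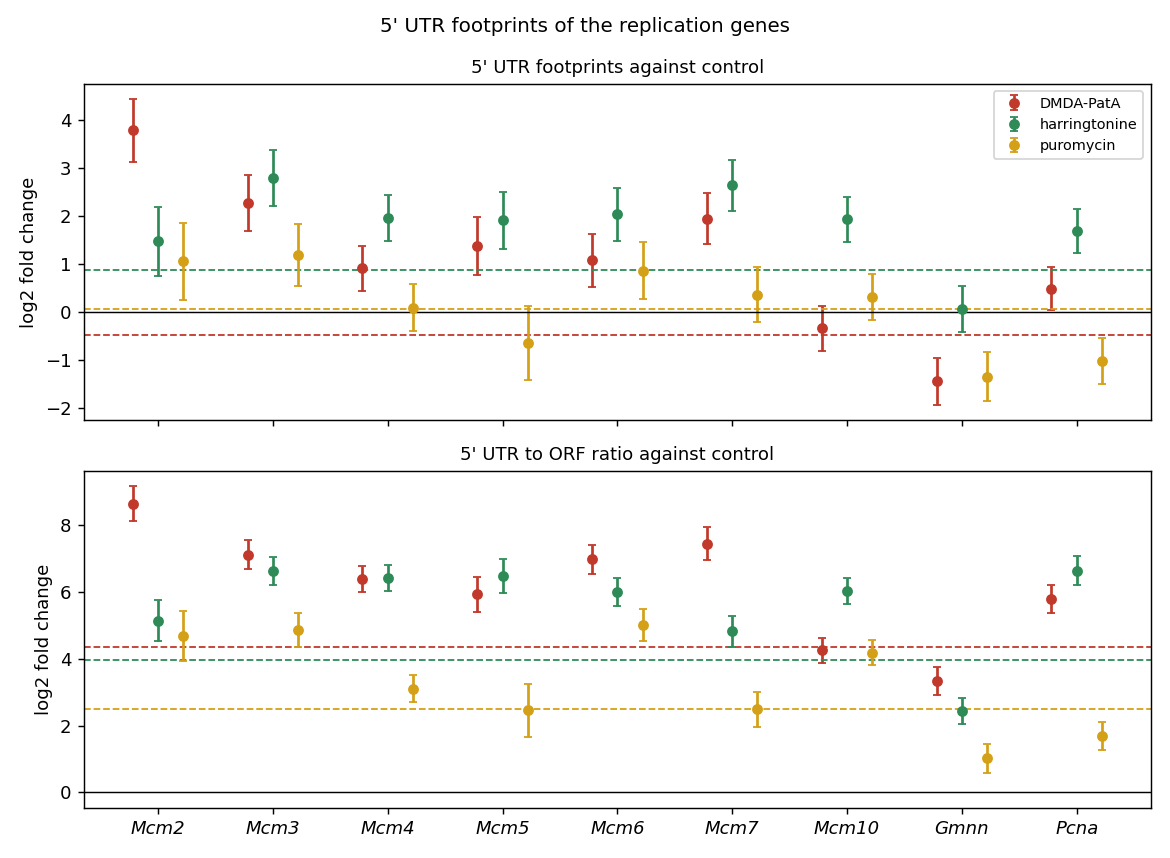
Log2 fold change against control of 5' UTR footprints (upper panel) and of the ratio of 5' UTR to ORF footprints (lower panel) for 9 genes and 3 inhibitors. Points are edgeR estimates with the standard error and dashed lines the medians of all transcripts tested. In the upper panel Mcm2 with DMDA-PatA is highest at 3.78 and Gmnn lowest at -1.44. Mcm2 passed the read filter only through its DMDA-PatA libraries. In the lower panel every point lies above 0.

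Of the 35 other replication genes tested in the 5' UTR, 7 were higher and 5 lower with DMDA-PatA, 18 were higher with harringtonine and none was called with puromycin in edgeR's test, where 2 were higher at an unadjusted p under 0.05 and DESeq2 called 0. Without control replicate 2 the counts were 3 higher and 3 lower with DMDA-PatA and 11 higher with harringtonine, without control replicate 1 the lower ones were 2, without DMDA-PatA replicate 1 they were 3, and without DMDA-PatA replicate 2 the higher ones were 4. The highest with DMDA-PatA was Pole, the catalytic subunit of polymerase epsilon, at 4.17 (SE 1.18, adjusted p = 0.0018, edgeR), and the lowest Orc6, a subunit of the origin recognition complex, at -3.07 (SE 0.56, adjusted p = 8.7e-07). The reads of Pole are not given here. Whether it passed the filter only through its DMDA-PatA libraries was not examined, and the p-value would not account for that. With harringtonine the highest was Timeless, a fork protection factor, at 3.95 (SE 0.60), and the lowest was its partner Tipin at -1.06 (SE 0.77, adjusted p = 0.27, edgeR). The ratio of 5' UTR to ORF footprints was raised in 34 of 35 with DMDA-PatA (not Dbf4), 33 with harringtonine (not Pole and Rpa3) and 29 with puromycin.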

How the data were processed

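CGR8 mouse embryonic stem cells were profiled in 8 ribosome profiling and 2 whole transcriptome libraries. Per the study's methods, reads were aligned in colour space to mm10 with LifeScope, matches of 26 to 36 nt with a match quality of at least 10 were kept, reads with several genome matches were discarded, and splice junctions were aligned with low efficiency. Picard 1.38 is named in the submitters' processing notes. The deposited values (signal) are read counts per ORF, 5' UTR and 3' UTR that the authors divided by size factors, taken from spiked-in RNA for footprints and between replicates for the transcriptome. The authors' ORF means use these factors as deposited and their transcript means give the harringtonine factors to DMDA-PatA and the reverse. Which is right was not settled, and the deposited values were used. Exchanging the factors lowered the SE of every member test whose value then changed sign. It fell from 0.45 to 0.25 for Mcm10 (DMDA-PatA against harringtonine) and from 0.45 to 0.23 for Mcm6 (harringtonine against puromycin). In these tests the replicates thus lay closer together with exchanged factors. All values (100%) divided by the amount for 1 read gave whole numbers, within 0.01 reads, so whole reads were recovered and tested as counts with the authors' factors as offsets.

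Groups came from the labels. Symbols and start codons came from GENCODE M21, which matched 15074 of 15269 transcripts. Transcripts reaching 10 reads in 2 or more libraries were tested over all listed transcripts with the quasi-likelihood test of edgeR 4.0.16 (R 4.3.3) and Benjamini-Hochberg adjustment, called at an adjusted p under 0.05. The SE is the fold change divided by the square root of the F statistic. The 5' UTR to ORF ratio was an interaction term over both regions. Depth ranged from 618334 to 10614247 coding ORF footprints a library, and the lower depth of the inhibitor libraries limits the precision of genes with few reads. Mappability was taken from 30-nt windows of each ORF sought in the genome. Alternatives were TMM, equal coding totals, exchanged DMDA-PatA and harringtonine size factors, DESeq2 1.42.0, limma 3.58.1 on log2(value + 1), no filter, a replicate block, only the 2 conditions compared, and each library left out. Scripts were tested on simulated data.

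The members and gene lists were chosen with earlier results of these data known. Named are all members, the replication genes with the greatest and smallest change or a differing call in each comparison, and the 3 transcripts closest to the subunit medians. Other named replication genes were chosen after their values were seen. Footprints on 3' UTRs entered no comparison.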

Additional observations from a re-analysis of the deposited data

Results flagged for a closer look

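Footprints on 3' UTRs entered no comparison. With harringtonine they lay above both control libraries in both replicates for 4 members. The share of all transcripts that did so was not counted, so this is not a result about the members. Cdt1 had a mean of 12.5 normalised footprints (17.2 and 7.70, from 17 and 11 reads, against 5.89 and 0.91 in control). Mcm10 had a mean of 16.6 (19.3 and 14.0 against 13 and 7.25, from 19 and 20 reads against 11 and 8). Mcm6 had a mean of 6.00 (7.10 and 4.90 against 1.18 and 3.63, from 7 and 7 reads against 1 and 4). Mcm7 had a mean of 2.22 (3.04 and 1.40 against 1.18 and 0, from 3 and 2 reads against 1 and 0). These counts lie near the floor. The differences were not tested. No member stood above control in this way with DMDA-PatA or puromycin.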

How the results depend on the processing

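With 2 libraries a group, and 17 to 74 reads on the Pcna ORF in inhibitor libraries, small differences between drugs could not be detected. The direction of every ORF decrease against control held with exchanged size factors, DESeq2, limma, no filter, the replicate block, only the 2 conditions compared and each library left out, as did that of the ratio of 5' UTR to ORF footprints and of translation efficiency in their own alternatives. The calls that moved did so mainly with TMM and with equal coding totals, which remove the global decrease by construction. For the other changes the cause was not tested.

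Members higher than control in the ORF numbered 1 with TMM and 1 with equal totals for DMDA-PatA (Cdt1, 0.80 and 0.94), 2 and 1 for harringtonine (Mcm7, 0.67 and 0.52, and Gmnn, 0.52 and 0.37). Members lower were 6 with equal totals for DMDA-PatA, and for puromycin 6 with TMM and 6 with equal totals, where Mcm7 turned to 0.35 and 0.35 and Gmnn to 0.052 and 0.045. The shares of all transcripts called in the ORF with equal totals are not given, here or between drugs.

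For DMDA-PatA against harringtonine, 4 were higher and 3 lower with TMM, and 7 and 2 with equal totals. The values that reversed were Mcm2 (0.23 and 0.52), Mcm3 (0.40 and 0.69), Mcm4 (0.31 and 0.60), Mcm10 (0.91 and 1.2), Pcna (0.97 and 1.26) and Cdt1 (0.82 and 1.11). Exchanged size factors turned Mcm10 to 0.044 and Pcna to 0.082. With only the 2 conditions compared 3 were lower. For DMDA-PatA against puromycin, 4 were higher and 4 lower with TMM, and 5 and 2 with equal totals, reversing Mcm2 (0.52 and 0.67), Mcm3 (0.55 and 0.69), Mcm5 (0.40 and 0.55), Mcm6 (0.020 and 0.17), Mcm10 (1.07 and 1.22) and Cdt1 (1.23 and 1.37). For harringtonine against puromycin, 1 was higher with TMM and 1 with equal totals, reversing Mcm2 (0.29 and 0.15), Mcm3 (0.15 and 0.0037), Mcm7 (0.32 and 0.17) and Mcm10 (0.16 and 0.017). Exchanged size factors gave Mcm6 -0.028, Cdt1 -0.27 and Gmnn -0.20, limma gave Cdt1 -0.020, and only the 2 conditions compared left 1 lower. With equal totals the medians of all transcripts were themselves 0.27 for DMDA-PatA against harringtonine and 0.13 for DMDA-PatA against puromycin. That for harringtonine against puromycin was -0.13. The counts with equal totals are therefore not particular to the members.

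In the 5' UTR, members higher with DMDA-PatA were 7 with TMM, 6 with exchanged size factors, 3 with DESeq2 and 9 with equal totals, where 0 were lower, with Mcm10 at 0.22 and 4.04 and Gmnn at 2.88. Gmnn with harringtonine was -0.73 with TMM and -0.12 with exchanged size factors. With puromycin 2 were lower with TMM, and 8 were higher with equal totals, with Mcm5 at 1.72, Pcna at 1.43 and Gmnn at 1.08. The medians of all transcripts with equal totals were 3.85 for DMDA-PatA and 2.47 for puromycin, so these rises are not particular to the members. The shares of all transcripts called with equal totals, with exchanged size factors and with DESeq2 are not given.

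The replicate numbers are not stated to mark a shared culture, and same-numbered libraries deviated together with correlations of only -0.02 to 0.05 over 12298 coding transcripts. A replicate block left 3 members lower for DMDA-PatA against harringtonine and 1 lower for harringtonine against puromycin, and 3 instead of 4 members higher in the 5' UTR with DMDA-PatA. It changed no other member's call.

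The shares of Mcm2 to Mcm7 per length in control were 17.0%, 21.5%, 11.2%, 28.0%, 12.7% and 9.64% with positions matching several places left out of the length, and 16.2%, 21.3%, 10.7%, 28.1%, 12.7% and 10.9% with the length cut to positions found once. In the transcriptome they were 18.5%, 22%, 6.67%, 31.1%, 15.7% and 6.01%, and 17.6%, 22%, 6.43%, 31.3%, 15.8% and 6.85%.

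Leaving out 1 library at a time, the members lower ranged from 3 to 8 for DMDA-PatA against harringtonine, from 5 to 9 for DMDA-PatA against puromycin and from 0 to 3 for harringtonine against puromycin. In the 5' UTR the members higher ranged from 2 to 4 with DMDA-PatA (0 to 1 lower) and from 3 to 8 with harringtonine. Values that changed sign for DMDA-PatA against harringtonine were Mcm5 (-0.37 to 0.40) and Pcna (-0.76 to 0.0025). For harringtonine against puromycin they were Mcm2 (-0.49 to 0.19), Mcm3 (-0.83 to 0.24), Mcm6 (-0.19 to 0.61), Mcm7 (-0.72 to 0.43), Mcm10 (-0.70 to 0.15), Cdt1 (-0.51 to 0.44) and Gmnn (-0.24 to 0.28). In the 5' UTR they were Pcna with DMDA-PatA (-0.031 to 0.88), Gmnn with harringtonine (-0.023 to 0.16), and Mcm4 (-0.35 to 0.70) and Mcm5 (-2.01 to 0.26) with puromycin.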
